A study of Mus musculus with 17 samples.

Results

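iXEN cells are induced extraembryonic endoderm stem (XEN) cells, which the series' title says are induced by OSKM, the factors used for reprogramming to pluripotency, and this comparison set iXEN cells kept in XEN medium against iXEN cells kept in ESC medium. Its members were the 4 libraries whose source label names iXEN cells in XEN cell medium and the 4 whose label names iXEN cells in ES cell medium, 8 of the 17 libraries of the series. All 8 came from CD-1 mouse cells described as a cell line. Every culture had 10 passages in ESC medium and then 5 more, in ESC medium for one group and in XEN medium for the other, so both groups share the earlier ESC medium and the same number of passages. The libraries carry the numbers 1, 2, 6 and 9 in both media, and the labels do not say whether a number stands for a line, a clone or a culture. The p-values therefore measure the spread between these libraries, which may in part be technical. The composition of the media is not given in the sources used here. RNA was taken up in Trizol and made into libraries with the Illumina TruSeq mRNA kit, and each library gave read counts per gene.

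XEN cells are the cultured counterpart of primitive endoderm, the layer that lines the blastocyst cavity and forms the visceral and parietal endoderm of the yolk sac. Visceral endoderm takes up nutrients through endocytosis and lysosomes and secretes carrier proteins, while parietal endoderm secretes a thick basement membrane of laminin and collagen IV. Gata4, Gata6, Sox17 and Sox7 are transcription factors that define the lineage. The comparison asks how far the transcripts of these cells depend on the medium.

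The label was checked against defining genes first. Gata6 had 327, 279, 423 and 365 CPM (read counts scaled to library size, with TMM factors) in ESC medium libraries 1, 2, 6 and 9, and 259, 223, 551 and 257 CPM in XEN medium libraries 1, 2, 6 and 9. The same order of libraries, 1, 2, 6 and 9, is kept in every list of 4 values below. Sox17 had 99.7, 252, 233 and 163 CPM in ESC medium and 318, 356, 335 and 144 CPM in XEN medium, and the ranges of both genes overlapped between the media. The macrophage markers C1qa and Emr1 were listed at 0 in all 8 libraries, and Ptprc did not pass 0.0492 CPM. Fibroblast genes were uneven among the libraries in XEN medium: the collagen gene Col1a1 had 0.114, 393, 0.18 and 391 CPM there and 7.77, 5.44, 4.94 and 6.3 CPM in ESC medium, so that XEN medium libraries 2 and 9 stood far above all others.

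Each library held 21752277 to 42949297 reads counted in genes. Within a medium, logCPM correlated at 0.885 to 0.96 between the ESC medium libraries and at 0.812 to 0.904 between those in XEN medium, and ESC medium 6 was the least like the other 3 ESC medium libraries. Numbers did not keep the sex-linked transcripts: the Y-linked gene Ddx3y had 21.9, 144, 25.3 and 0.098 CPM in ESC medium and 147, 22, 0 and 21.7 CPM in XEN medium, and Xist, the RNA of the inactive X, had 2239 CPM in ESC medium 9 and at most 11.1 CPM elsewhere. Reads without a unique position made up 14.5 to 16.2% of a file's total in ESC medium and 16.3 to 24.6% in XEN medium. Short transcripts were relatively more abundant in XEN medium. The median log2 fold change was 0.65 among the fifth of the genes with the shortest transcripts and -0.42 among the fifth with the longest, and Spearman's rho of fold change and length was -0.40 over 12828 genes, as a description. Its share in the results was not tested beyond a second fit that removes this trend from each library, whose values stand beside the results as length-adjusted.

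**Figure D1:**
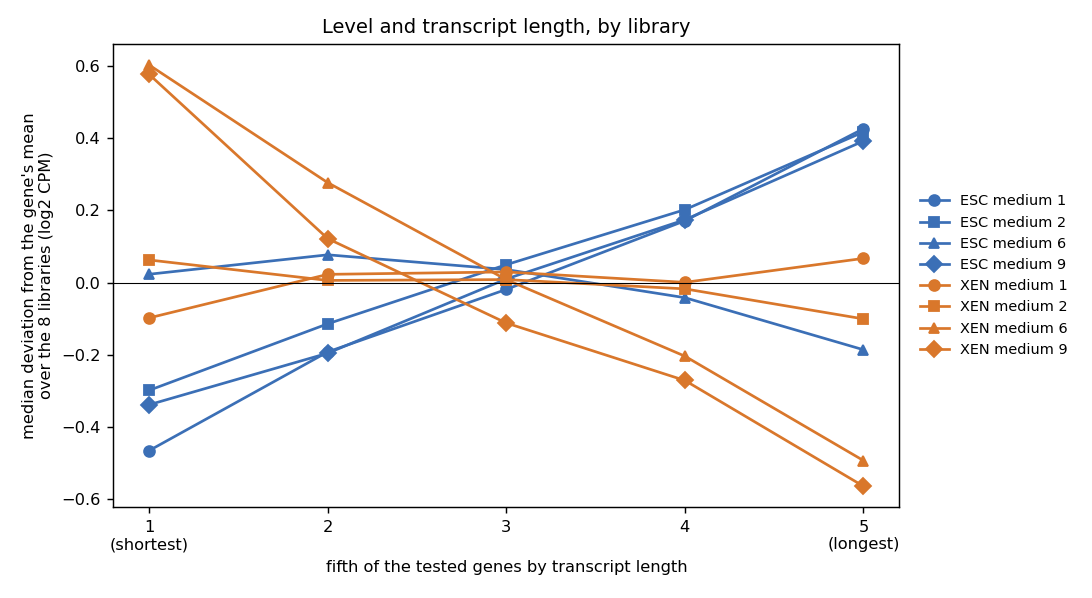
Median deviation of logCPM from each gene's mean over the 8 iXEN libraries (log2, y axis) in 5 groups of equal size of the tested genes, ordered by transcript length (x axis), 1 line per library, blue for ESC medium and orange for XEN medium. XEN medium 6 and 9 lay highest for short transcripts (0.60 and 0.58), ESC medium 1, 2 and 9 lowest (-0.47, -0.30 and -0.34), and ESC medium 6 and XEN medium 1 and 2 were close to 0.

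No gene passed the test of the medium. edgeR's quasi-likelihood test over 12920 genes called 0 genes (0% of those tested) at an adjusted p under 0.05, and the lowest adjusted p was 0.0581, shared by 129 genes. At an unadjusted p under 0.05 there were 3018 genes, of which 1728 were higher in XEN medium (13.4% of those tested) and 1290 lower (9.98%). All 4 libraries in XEN medium lay above all 4 in ESC medium for 802 genes (6.21%) and below them for 751 (5.81%). DESeq2, run as an alternative, called 949 of 13773 genes higher (6.89%) and 688 lower (5.00%). The median log2 fold change over all genes was 0.08. Higher and lower below therefore describe values in these libraries and not differences that passed the test. A signed value in brackets after a gene is its log2 fold change, XEN medium over ESC medium.

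Single libraries moved this count. Without ESC medium 6, edgeR called 416 genes (164 higher and 252 lower), and without XEN medium 2 it called 346 (188 higher and 158 lower). Leaving out each of the other 6 libraries in turn gave 0 calls. In the fit with length-adjusted values, 0 genes passed as well, with 10.5% of 12828 genes higher and 7.62% lower at an unadjusted p under 0.05.

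The genes lower in XEN medium with the smallest p-values included Ntn4, Ctns, Flcn and Dsp. Ntn4, a netrin found in basement membranes, had 55.8, 87.5, 28.9 and 76.6 CPM in ESC medium and 4.48, 8.64, 3.76 and 3.97 CPM in XEN medium. The groups did not overlap, and the log2 fold change was -3.55 (SE 0.44, edgeR adjusted p = 0.0581). Ctns, which carries cystine out of the lysosome, had 148, 212, 162 and 265 CPM in ESC medium and 39.5, 51.4, 57.7 and 45.8 CPM in XEN medium (-1.99, SE 0.26, edgeR adjusted p = 0.0581). Flcn, folliculin, acts at the lysosome surface in nutrient signalling and had 153, 188, 171 and 282 against 70.6, 57.2, 63.7 and 45 CPM, a log2 difference of -1.73. Dsp, desmoplakin, the plaque protein of desmosomes, had 169, 123, 86.6 and 112 CPM in ESC medium and 32.5, 23.1, 29.2 and 11.3 CPM in XEN medium (-2.34). Each of these 4 genes was lower in all 4 libraries in XEN medium than in any in ESC medium.

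The other genes lower in XEN medium by the same ranking were Xlr3a (-3.25), an X-linked gene with near-identical copies whose count is uncertain, the lipid transporter Abca3 (-2.03), Dpcr1 (-3.68), the histone methyltransferase Kmt2c (-2.46), Tbc1d16 (-1.67) and the oocyte growth factor Gdf9 (-2.87). Dpcr1 had 150.4, 205, 178 and 193 CPM in ESC medium and 6.84, 32.3, 8.3 and 8.25 CPM in XEN medium. It was the single gene with an adjusted p under 0.05 (log2 fold change -4.60, edgeR adjusted p = 0.0164) when XEN medium 2 and 9 were both left out. Gdf9 had 31.3, 25.5, 38.1 and 18.1 and 2.32, 2.8, 3.7 and 6.34 CPM, and Kmt2c had 271, 273, 149 and 485 and 49.3, 67.4, 53.7 and 39.7 CPM. Kmt2c has a long transcript, and its length-adjusted value was -1.37, while those of Ntn4 (-3.33), Ctns (-1.98) and Gdf9 (-3.12) stayed close to the unadjusted ones.

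The genes higher in XEN medium with the smallest p-values included Med30, Rbm8a, Ndufab1 and Rps2. Med30, a subunit of the Mediator of transcription, had 8.31, 8.87, 11.7 and 7.58 CPM in ESC medium and 33, 35.7, 45.9 and 39.4 CPM in XEN medium (2.1, SE 0.28, with an adjusted p of 0.0581 by edgeR). Rbm8a, part of the exon junction complex, had 58.9, 65, 61.9 and 69.1 CPM and 280.4, 136, 224 and 196 CPM (1.73). Ndufab1, the mitochondrial acyl carrier protein, had 11, 39.6, 19.5 and 24.5 CPM and 154, 121, 204 and 105 CPM (2.65). Rps2, a protein of the small ribosomal subunit, had 584, 679, 1118 and 514 CPM in ESC medium and 3932, 2425, 4013 and 4514 CPM in XEN medium (2.38). All 4 libraries in XEN medium were above all 4 in ESC medium for each of these genes.

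Next in that ranking stood Emc6 (2.31), of a complex that inserts membrane proteins in the endoplasmic reticulum, the host RNA of small nucleolar RNAs Snhg8 (2.37), the nuclear transport cofactor Ranbp1 (1.86), the RNA polymerase subunit Polr2k (1.76), Irak1bp1 (3.33) and the phosphatase Pgp (2.36). Snhg8, Emc6 and Polr2k have short transcripts, and their length-adjusted values were lower, at 1.53, 1.69 and 0.87. Rbm8a (1.74), Ndufab1 (2.6) and Pgp (2.37) were hardly moved by the adjustment. Hmga2, a chromatin protein of embryonic and dividing cells, had 55.1, 42.5, 26.2 and 52.4 CPM in ESC medium and 231, 147, 102 and 331 CPM in XEN medium (2.23). Prnp, the prion protein gene, had 322, 274, 871 and 249 and 1643, 2725, 5342 and 966 CPM (2.65), and neither gene's groups overlapped.

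**Figure D2:**
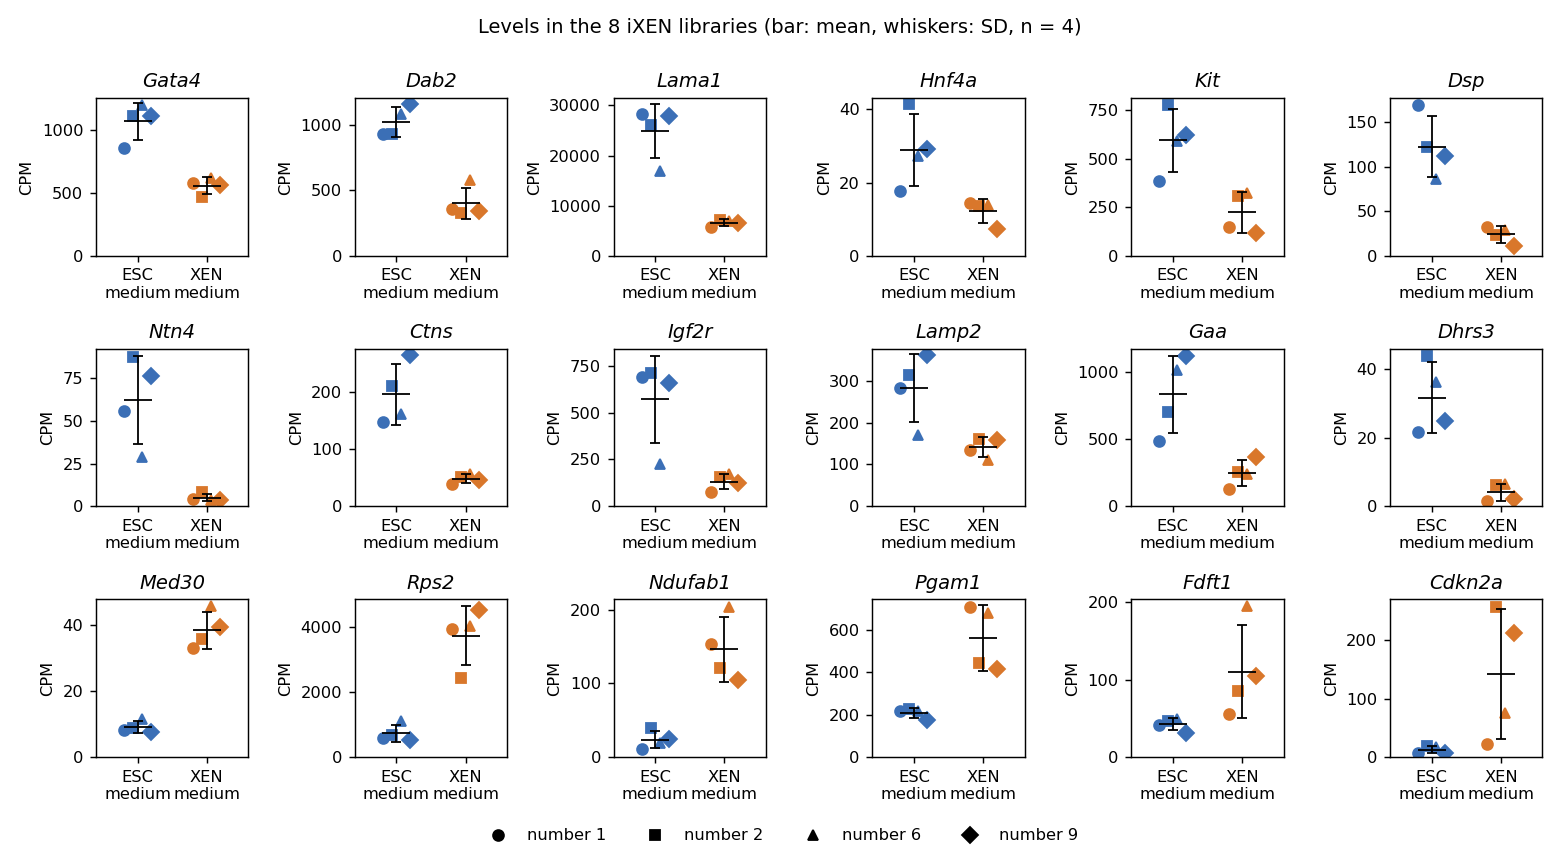
CPM (y axis, from 0) of 18 genes in the 4 iXEN libraries in ESC medium (blue) and the 4 in XEN medium (orange), with the mean and SD in black and the number of each library as its symbol. The groups do not overlap for any of the 18 genes, which were picked after their values were seen, from Gata4 (860 to 1198 against 469 to 621 CPM) to Cdkn2a (7.35 to 18.8 against 23.3 to 258 CPM).

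No gene of the XEN core list was higher in XEN medium at an unadjusted p under 0.05. Of its 14 tested members, 6 were lower at that p (against 9.98% of all genes), 5 without overlap (against 5.81%), and the median log2 fold change was -0.95, or -0.52 length-adjusted and -0.75 without XEN medium 2 and 9. Gata4 had 859.6, 1112, 1198 and 1113 CPM in ESC medium and 583, 469, 621 and 562 CPM in XEN medium (-0.92, 95% interval -1.44 to -0.39), so that every XEN medium library was below every ESC medium library. Dab2, an adaptor for endocytosis, had 929, 935, 1084 and 1163 CPM and 359, 329, 582 and 345 CPM (-1.33, DESeq2 adjusted p = 0.000418, not called by edgeR). Lama1 and Lamb1 encode chains of laminin-111, the first laminin of the embryo. Laminin genes are also counted in the basement membrane list below, so the counts of these lists are not separate results. Lama1 had 28361, 26153, 16889 and 27926 CPM in ESC medium and 5770.0, 7225, 6961 and 6568 CPM in XEN medium (-1.88, length-adjusted -1.03), and Lamb1 had 16654, 17786, 14195 and 17419.5 CPM and 5876, 7844, 6717 and 5652 CPM (-1.32, length-adjusted -0.82). The collagen-binding protein Sparc (-0.99) and the growth factor receptor Pdgfra (-1.01) were lower too.

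The other lineage factors were not lower at that threshold. Gata6 differed by -0.09 (95% interval -0.83 to 0.64), Sox7 by 0.31 (-0.33 to 0.96), Sox17 by 0.64 (-0.18 to 1.47) and Foxa2 by 0.03 (-0.67 to 0.72). Each of these intervals includes 0, and a difference inside them was not detectable with 4 libraries in each medium. Col4a1, a chain of collagen IV, varied widely within each medium, with 2219.8, 11622, 32057 and 24749.7 CPM in ESC medium and 7307, 2019, 15379.9 and 9534 CPM in XEN medium.

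Basement membrane genes were mostly lower in XEN medium. Of 16 tested, 9 were lower (against 9.98% of all genes) and 1 higher (against 13.4%) at an unadjusted p under 0.05, and 6 were lower without overlap (against 5.81%), with a median of -1.26 (-0.71 length-adjusted, -1.31 without XEN medium 2 and 9). Their summed level was 110179 to 157673 CPM in ESC medium and 35885 to 64256 CPM in XEN medium. Lamc1, the third chain of laminin-111, had 22549, 20909, 11907 and 20582 CPM and 6347, 11090.1, 4719.6 and 3834 CPM (-1.53). Nid2, a nidogen that links laminin to collagen IV, had 1696, 1729, 495 and 2696 CPM in ESC medium and 337, 388, 215 and 163 CPM in XEN medium (-2.56, DESeq2 adjusted p = 0.000144, not called by edgeR). Pxdn, peroxidasin, crosslinks collagen IV and differed by -1.2. Nid1 had 10728, 10344, 1024 and 10882 CPM and 489.8, 3546, 1026 and 892 CPM: ESC medium 6 was at the level of the libraries in XEN medium, and the groups overlapped. Several members have long transcripts, and the value of the proteoglycan Hspg2 went from -1.39 to -0.26 with the length adjustment.

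In the visceral endoderm list, 7 of 16 tested genes were lower (against 9.98% of all genes) and 1 was higher (against 13.4%) at an unadjusted p under 0.05. Without overlap 2 were lower (against 5.81%) and 1 was higher (against 6.21%), with a median of -1.29 (-0.85 length-adjusted). Hnf4a, the transcription factor of nutrient-handling epithelia, had 17.7, 41.3, 27.4 and 29.1 CPM in ESC medium and 14.3, 13.6, 14 and 7.44 CPM in XEN medium (-1.21), without overlap. Apob, the lipoprotein scaffold, had 5.71, 4.74, 0.83 and 4.31 CPM and 0.038, 0.0984, 0.0902 and 0.463 CPM (-4.41), also without overlap but at low levels. The thyroxine carrier Ttr had 21.7, 153, 26.1 and 122 CPM in ESC medium and 2.43, 22.7, 18.4 and 7.67 CPM in XEN medium (-2.62), and the Hedgehog ligand Ihh had 28.3, 125, 83.1 and 82.2 and 32.5, 11.2, 8.93 and 7.41 CPM (-2.39). XEN medium 1 reached into the ESC medium range for Ihh, and XEN medium 2 did so for Ttr. Afp, the fetal serum protein, was at most 13.7 CPM in any library (-2.92). The exception was Spink3, a secreted protease inhibitor, with 7.81, 21.7, 13.1 and 5.42 CPM in ESC medium and 38.7, 177, 507 and 51.6 CPM in XEN medium (4.03, DESeq2 adjusted p = 4.36e-05, not called by edgeR).

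Parietal endoderm genes were mixed. Of 17 tested, 5 were lower (against 9.98% of all genes) and 2 higher (against 13.4%) at an unadjusted p under 0.05 (median -0.48), and 4 of the 5 lower ones also stand in the basement membrane or XEN core list. The proteoglycan Srgn had 1111, 896, 1019 and 1473 CPM in ESC medium and 79.2, 864, 785 and 509.7 CPM in XEN medium (-0.98, unadjusted p = 0.126), with XEN medium 1 far below the rest. Thbd, thrombomodulin, differed by 0.65 (95% interval -0.28 to 1.58) and Pth1r, the receptor of parathyroid hormone-related protein, by 0.54 (-0.42 to 1.5). Vim, the intermediate filament vimentin, was higher without overlap at 184, 382, 361 and 289 CPM in ESC medium and 434, 951, 1014 and 4835 CPM in XEN medium (2.62), the highest value being that of XEN medium 9.

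The surface proteins Kit, Tek, Cdh5 and Csf1r were lower. Kit, the receptor of stem cell factor, had 383, 777, 589.7 and 621 CPM in ESC medium and 146, 309, 321 and 118 CPM in XEN medium (-1.39), without overlap. Of the 5 endothelial genes tested, 3 were lower at an unadjusted p under 0.05 (against 9.98% of all genes) and 0 higher: Cdh5, Tek and Vwf. Tek, the angiopoietin receptor, had 230.1, 256, 110.3 and 107 CPM and 71.2, 81.2, 49.1 and 32.6 CPM (-1.57), and VE-cadherin (Cdh5) had 251, 362, 205 and 143 CPM and 14.2, 151, 42.7 and 14.4 CPM (-2.09). The other 5 of the 10 endothelial genes listed did not pass the filter on low counts. Among these Pecam1 had 0.076, 7.38, 0.241 and 0.203 CPM, Tie1 0.266, 4.8, 0.0902 and 0.0579 CPM and Eng 0.038, 0.541, 0.0301 and 22.7 CPM in XEN medium, each with 1 high library, 2 or 9, and none passed 0.395 CPM in ESC medium. Csf1r, the receptor of macrophage colony stimulating factor, was at 4.62, 2.65, 22.1 and 9.63 CPM in ESC medium and 2.05, 0.787, 2.59 and 0.84 CPM in XEN medium (-2.63), without overlap. The other macrophage markers were low in both media, with Cd68 at 4.2, 3.37, 5.35 and 2.91 CPM and 2.51, 2.46, 3.88 and 3.68 CPM and Tyrobp at no more than 1.3 CPM.

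Fibroblast genes were high in 2 of the 4 libraries in XEN medium. Of 19 tested, 15 were higher (against 13.4% of all genes) and 0 lower at an unadjusted p under 0.05, yet 0 were without overlap, and the median was 5.04. Without XEN medium 2 and 9 the median was -2.88. The summed level of the list was 46.5 to 70.8 CPM in ESC medium and, in XEN medium, 28.3, 3489, 31.8 and 2614 CPM. Postn, a matrix protein, had 0, 189, 0 and 0.0579 CPM in XEN medium, and Thy1, a surface protein of fibroblasts, had 0, 163, 0.0301 and 0.203 CPM, so that both stood out in XEN medium 2 alone. S100a4 had 0.342, 33.3, 0.391 and 913 CPM and the cyclin gene Ccnd1 5.85, 125, 3.64 and 794 CPM, highest in XEN medium 9. The pluripotency genes Pou5f1 (0.57, 1.38, 0.632 and 58.4 CPM) and Sox2 (0.038, 0.0738, 0 and 48.2 CPM) were also at their highest in XEN medium 9. The MEF libraries of the series had 12929.7 to 17288 CPM of Col1a1 and 0.0295 to 0.116 CPM of Pou5f1. The part of other cells in the values of XEN medium 2 and 9 was not tested, and fewer cells of a type cannot be told apart from less RNA per cell in these bulk libraries.

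**Figure D3:**
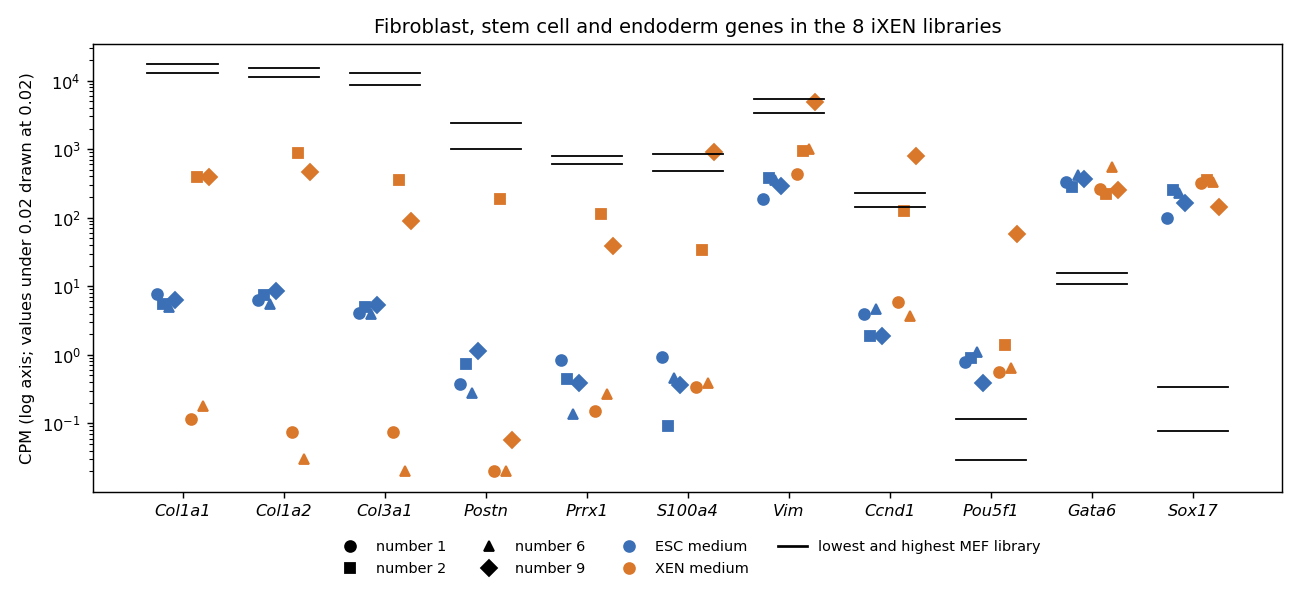
CPM (log axis, with values near 0 drawn at the lower edge) of fibroblast, stem cell and endoderm genes in the 8 iXEN libraries, blue for ESC medium and orange for XEN medium, with the number as symbol and the lowest and highest MEF library as black lines. Col1a1 was at 393 and 391 CPM in XEN medium 2 and 9 and at 0.114 and 0.18 CPM in XEN medium 1 and 6, with the 4 ESC medium libraries between them at 4.94 to 7.77 CPM.

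Lysosomal genes were lower in XEN medium, a list of 34 added after the values of Ctns and Flcn were seen. Both genes are members and are included in the counts, so these counts are in part fixed by how the list was chosen. Of the 34 tested, 18 were lower and 0 higher at an unadjusted p under 0.05 (against 9.98% of all genes), 16 were lower without overlap (against 5.81%), and DESeq2 called 14 lower (against 5.00%). The median was -0.83, and with the length adjustment it was -0.93, with 20 lower at an unadjusted p under 0.05 (against 7.62%). Without XEN medium 2 and 9 the median was -1.01. The summed level was 17775, 21637, 15407 and 24996 CPM in ESC medium and 5977, 10110.4, 10910.3 and 10204 CPM in XEN medium. Gaa, the acid glucosidase that degrades glycogen, had 489, 708, 1021 and 1124 CPM in ESC medium and 131, 255, 242 and 366 CPM in XEN medium (-1.72). Lamp1 and Lamp2 are the main membrane proteins of lysosomes. Lamp1 had 1752, 1721, 2312 and 1942 CPM and 1137, 923, 1572 and 1010.1 CPM (-0.72), and Lamp2 had 281, 314, 171 and 361 CPM and 134, 161, 110.0 and 158 CPM (-0.97). Igf2r, an imprinted gene whose product sorts enzymes to lysosomes, had 687, 713, 224 and 659 CPM in ESC medium and 78.7, 158, 170.4 and 123 CPM in XEN medium (-2.08). The cholesterol exporter Npc1 (-1.45), the protease subunit Ctsa (-1.4), Cln3 (-1.27), Psap (-0.97) and the galactosidase Glb1 (-0.90) were all lower without overlap.

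Many lysosomal genes are known to carry the E-box CACGTG near their start sites, the core of the element bound by TFEB and its relatives. RefSeq promoters (GRCm38.p6, 250 bases before to 50 after the start) were matched for 26 of the 34 genes, and 13 of these (50% of them) held CACGTG, which reads the same on both strands, against 11.8% of the 9694 tested genes with a promoter. No match was found in the windows of Ctns, Flcn, Lamp2 and Psap, all lower without overlap, or in those of several other members. Shown are 4 members picked among those with a match that were lower without overlap. The 160 bases before the start are given 5′ to 3′ on the gene's strand, with CACGTG in capitals. The windows are chr8:13159001-13159160 (plus strand) for Lamp1, chr9:114400918-114401077 (plus) for Glb1, chr11:119267803-119267962 (plus) for Gaa and chr17:12769707-12769866 (minus) for Igf2r.
Lamp1: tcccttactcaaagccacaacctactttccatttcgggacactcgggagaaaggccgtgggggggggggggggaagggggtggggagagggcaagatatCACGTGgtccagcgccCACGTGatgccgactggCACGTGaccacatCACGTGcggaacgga
Glb1: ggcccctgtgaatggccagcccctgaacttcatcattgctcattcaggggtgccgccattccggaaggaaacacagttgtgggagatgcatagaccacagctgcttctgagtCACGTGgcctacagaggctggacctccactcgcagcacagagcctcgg
Gaa: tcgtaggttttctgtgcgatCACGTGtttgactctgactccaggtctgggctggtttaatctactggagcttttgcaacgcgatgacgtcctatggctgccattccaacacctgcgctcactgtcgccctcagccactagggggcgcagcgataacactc
Igf2r: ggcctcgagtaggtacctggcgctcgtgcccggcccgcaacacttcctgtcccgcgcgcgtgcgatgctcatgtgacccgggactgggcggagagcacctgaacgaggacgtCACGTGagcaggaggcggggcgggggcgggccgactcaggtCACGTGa
Tfeb itself had 14.7, 27.1, 51.5 and 32.5 CPM in ESC medium and 41.7, 18.5, 35.6 and 42.2 CPM in XEN medium (0.16, 95% interval -0.76 to 1.08). A match describes the sequence and is not evidence that a factor bound there in these cells. The share with CACGTG was not compared between the members that were lower and the others, so it describes the list and not the effect of the medium.

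Genes of ribosomes and of mitochondria were higher in XEN medium, with smaller values after the length adjustment. These 4 lists, proteasome genes included, were taken by symbol after the values were seen. Their counts include Rps2 and Ndufab1, which the ranking by p-value had already picked out. Mrps24, also included, had been picked by the ranking of a fit with the library numbers as a block. Of 81 cytosolic ribosomal protein genes, 65 were higher and 0 lower at an unadjusted p under 0.05 (against 13.4% of all genes), and 30 were higher without overlap (against 6.21%). Their median was 1.29, or 0.53 length-adjusted with 35 at that p (against 10.5%), and 1.19 without XEN medium 2 and 9. Their summed level was 41344, 53182, 80180.2 and 45028 CPM in ESC medium and 80887, 78336, 159478 and 188819 CPM in XEN medium, so that ESC medium 6 reached the level of XEN medium 1 and 2. Rpl13 had 154, 494, 603 and 267 CPM in ESC medium and 1308, 1421, 3697 and 3888 CPM in XEN medium (2.8). Ribosomal protein genes have many pseudogenes, and reads without a unique position were not counted in any gene. Such reads made up 14.5 to 16.2% of a file's total in ESC medium and 16.3 to 24.6% in XEN medium. Their part in these values was not tested.

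Of 77 mitochondrial ribosomal protein genes, 64 were higher (against 13.4%) and 0 lower at an unadjusted p under 0.05, 35 without overlap (against 6.21%, median 0.92, length-adjusted 0.49 with 33 at that p). Mrps24 had 8.1, 11.5, 12.3 and 14.9 CPM in ESC medium and 31.2, 29.7, 60.8 and 58.3 CPM in XEN medium (1.97). Of 78 respiratory chain genes, 46 were higher (against 13.4%) and 1 lower (against 9.98%) at that p (median 0.96). Without overlap 18 were higher (against 6.21%) and 1 was lower (against 5.81%). Length-adjusted, 15 were higher (against 10.5%) and 2 lower (against 7.62%, median 0.23). Cox5a, of cytochrome c oxidase, had 51.3, 79.5, 94.7 and 55.5 CPM and 267, 168, 437 and 325 CPM (2.11, length-adjusted 1.3). Of 37 proteasome genes, 20 were higher (against 13.4%) and 0 lower at that p, 6 without overlap (against 6.21%), with a median of 0.77. Length-adjusted, 9 were higher (against 10.5%) and 0 lower, with a median of 0.41.

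Cholesterol synthesis genes included several with higher levels in XEN medium. Of 21 tested, 8 were higher (against 13.4% of all genes) and 0 lower at an unadjusted p under 0.05, 3 without overlap (against 6.21%), with a median of 0.80 (0.68 length-adjusted, with 9 at that p against 10.5%). Fdft1, which makes squalene, had 42.1, 46.7, 49.2 and 31.3 CPM in ESC medium and 55.9, 84.8, 195 and 105 CPM in XEN medium (1.4). Idi1, an isomerase of the isoprene units, had 18.5, 18.4, 6.27 and 11.2 CPM and 49.6, 97.9, 64.2 and 20 CPM (2.11), and Fdps, which joins them, had 33.6, 51.6, 28.6 and 31.1 CPM and 46.5, 198, 217 and 89.9 CPM (1.95). Levels were highest in XEN medium 6 or 2, depending on the gene. The summed level of the list was 680 to 1668 CPM in ESC medium and 1033, 1886, 2580 and 1052 CPM in XEN medium. XEN medium 1 and 9 thus lay within the ESC medium range. Hmgcs1, which acts early in the pathway, was listed at 0 in all 8 libraries and could not be read.

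Glycolysis genes were not uniform. Of 22 tested in the glycolysis and hypoxia list, 4 were higher (against 13.4% of all genes) and 2 lower (against 9.98%) at an unadjusted p under 0.05, shares near those of all genes. The enzymes Pgam1 (216, 226, 218 and 172 CPM in ESC medium, 707, 441, 679.5 and 415 CPM in XEN medium, 1.45) and Tpi1 (249, 238, 314 and 306 CPM and 701, 464, 657 and 672 CPM, 1.2) were higher without overlap. Egln3, a prolyl hydroxylase that responds to low oxygen, had 24.9, 165, 50 and 29.7 CPM and 5.2, 39.4, 7.61 and 4.03 CPM (-2.23). Library 2 was the highest in both media, and the groups overlapped.

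Signalling lists showed no common direction. Without XEN medium 2 and 9, medians went from 0.37 to -0.32 in the STAT3 list and from 0.68 to -0.38 in the WNT list. The FGF and ERK median went from 0.70 to 0.20 and the retinoid median from 0.41 to -0.51. In the STAT3 response list, which holds genes that respond to leukaemia inhibitory factor, 5 of 24 were higher (against 13.4% of all genes) and 3 lower (against 9.98%) at an unadjusted p under 0.05. The feedback gene Socs3 had 43.1, 27.2, 144 and 23.4 CPM in ESC medium and 41.2, 44.9, 54.8 and 46.6 CPM in XEN medium (-0.33, 95% interval -1.55 to 0.89). Stat3 itself had 208, 180.0, 188 and 244 CPM and 128, 139.9, 157 and 96.7 CPM (-0.63), the receptor chain Il6st differed by -1.22 and the feedback gene Cish by -1.33. In the FGF and ERK list 7 of 19 were higher and 2 lower, against the same shares. Without overlap 0 were higher (against 6.21%) and 1 was lower (against 5.81%). The transcription factor Etv5 had 3.15, 11.8, 21.5 and 4.54 CPM in ESC medium and 55.9, 41.1, 18.3 and 41.1 CPM in XEN medium (1.95), and the receptor Fgfr3 had 92.8, 124, 93 and 254 CPM and 55.4, 82.9, 59 and 63.8 CPM (-1.08), without overlap. Of the WNT list 2 of 13 were higher (against 13.4%) and 0 lower at that p, a share near that of all genes. None of the 13 was without overlap in either direction. Wnt11 was among those higher, with 121, 10.8, 8.42 and 56.5 CPM in XEN medium (3.59). In the retinoid list the retinal reductase Dhrs3 was lower without overlap, with 21.6, 43.9, 36.4 and 24.9 CPM in ESC medium and 1.48, 6.18, 6.47 and 2.32 CPM in XEN medium (-2.92).

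Among growth and chromatin genes, the tumour suppressor Cdkn2a was higher without overlap, with 7.35, 18.8, 17.9 and 7.84 CPM in ESC medium and 23.3, 258, 75.8 and 213 CPM in XEN medium (3.49). It was highest in XEN medium 2 and 9, as the fibroblast genes were. The p53 target Phlda3 differed by 1.81, and 4 of 18 genes of the p53 and CDK inhibitor list were higher (against 13.4%) and 0 lower at an unadjusted p under 0.05. In the cell cycle list 5 of 25 were higher (against 13.4% of all genes) and 0 lower, and the proliferation marker Mki67 differed by -0.19 (95% interval -1.06 to 0.69). The DNA methyltransferase Dnmt3a (51.9, 72.3, 43.6 and 62.7 CPM and 28.5, 29.9, 15.4 and 18 CPM, -1.31) and the 5-methylcytosine oxidase Tet3 (88.3, 128, 73.6 and 177 CPM and 69.3, 44.2, 35 and 31.3 CPM, -1.36) were lower without overlap. Of 21 imprinted genes 7 were lower (against 9.98%) and 1 higher, with Impact at 205, 149.9, 164 and 232 CPM in ESC medium and 122, 63.8, 66.3 and 71.6 CPM in XEN medium (-1.2).

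The integrated stress response, MHC class I, interferon, NRF2, folding, BMP and cytokine lists had no larger share of genes at an unadjusted p under 0.05 than all genes (13.4% higher and 9.98% lower). The integrated stress response list had 0 of 27 in either direction, the MHC class I list 0 of 8, the interferon list 1 of 12 higher, the NRF2 list 1 of 17 higher and the endoplasmic reticulum folding list 2 of 18 higher. The stress gene Asns had 71.3, 91.3, 599 and 49.3 CPM in ESC medium and 207, 372, 129 and 93.6 CPM in XEN medium, and ESC medium 6 was the highest of the 8. The list of BMP, Nodal and TGF-beta genes had 1 of 16 higher, and the cytokine list 1 of 14 higher. Other small lists stood above or near those shares by few genes. Of the fatty acid list 1 of 16 was higher and 3 lower. Of 8 pluripotency genes tested 2 were higher, and the median of 0.46 was 0.08 without XEN medium 2 and 9. Of the mesenchymal list 4 of 19 were higher and 0 lower, with a median of 0.80 that was -1.32 without XEN medium 2 and 9. Its summed level in XEN medium was 1641, 7360.1, 3389 and 7792 CPM, highest in the same 2 libraries that held fibroblast transcripts. Of 17 epithelial genes 2 were lower, Dsp and Grhl2, the latter at no more than 1.25 CPM. The keratin Krt8 differed by 0.04 (95% interval -0.79 to 0.87) and the adhesion gene Epcam by 0.42 (-0.59 to 1.43).

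**Figure D4:**
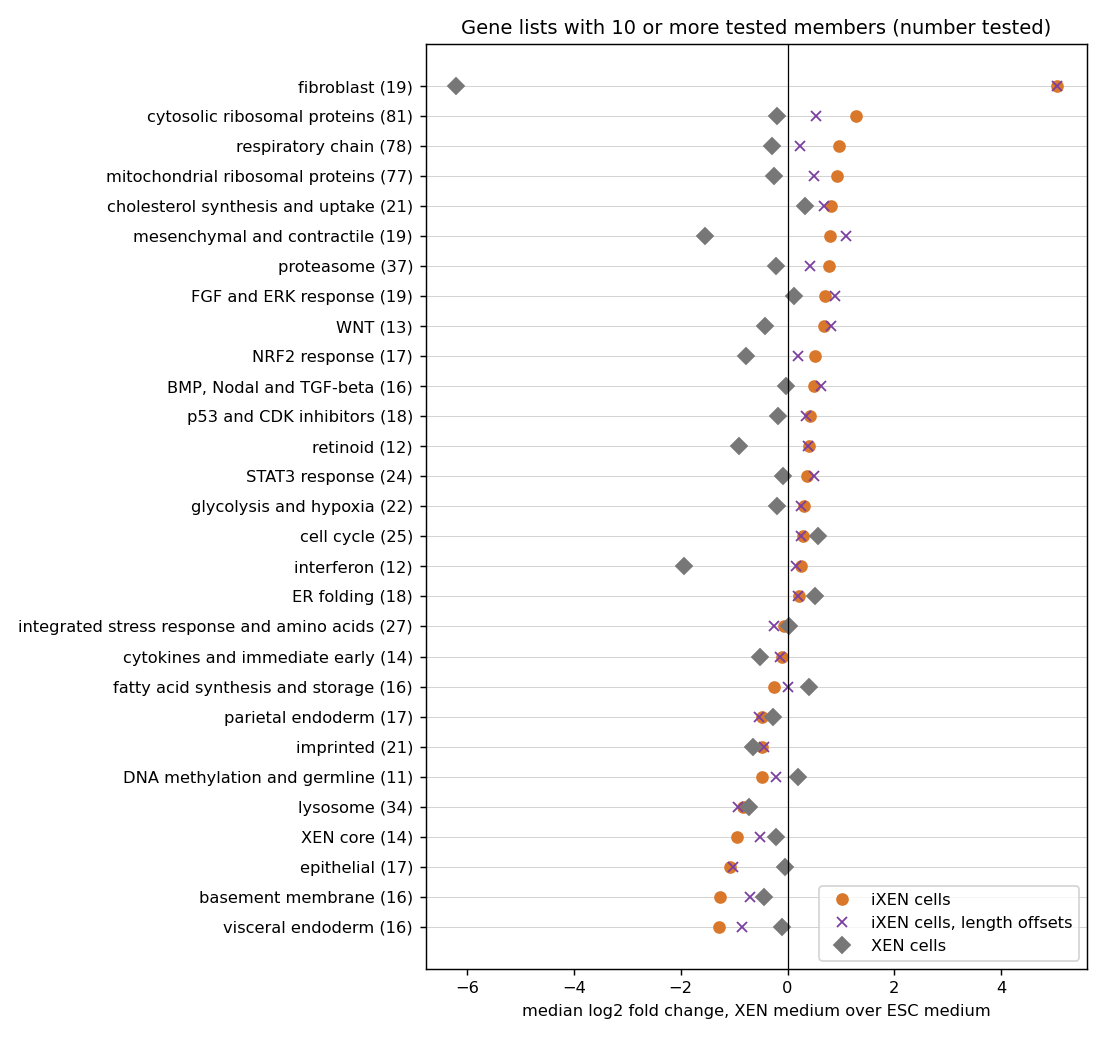
Median log2 fold change of XEN medium over ESC medium (x axis) for gene lists with 10 or more tested members (number tested in brackets), in iXEN cells (orange circles), in iXEN cells with the length adjustment (purple crosses) and in XEN cells (grey diamonds). Endoderm, basement membrane and lysosome lists lie below 0 in iXEN cells, and ribosomal and mitochondrial lists lie above 0 and move toward it with the length adjustment. The fibroblast list is at 5.04 in iXEN cells and at -6.21 in XEN cells. Its iXEN median without XEN medium 2 and 9, -2.88, is not drawn.

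The 6 XEN cell libraries of the series, 3 in each medium, were set beside the iXEN libraries. XEN cells had the same 10 passages in ESC medium and 5 in either medium. In XEN cells alone edgeR called 0 of 13241 genes, with 330 higher (2.49%) and 416 lower (3.14%) at an unadjusted p under 0.05. The difference between the 2 cell types was tested as the interaction of cell type and medium over 14 libraries. edgeR called 0 of 14357 genes (0%), the lowest adjusted p was 0.221, and 2131 genes had an unadjusted p under 0.05, of which 1548 had the higher value in iXEN cells (10.8%) and 583 the lower (4.06%). DESeq2 called 489. No gene is therefore called particular to iXEN cells.

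Lysosomal genes were also lower in XEN medium in XEN cells, with a median of -0.72, 6 of 34 lower (against 3.14% of all genes) and 1 higher (against 2.49%) at an unadjusted p under 0.05. The interaction had that p for 0 of them in the higher direction and 4 in the lower (against 4.06%). Ctsa differed by -1.62 in XEN cells (95% interval -2.94 to -0.30) and by -1.4 in iXEN cells, and Gaa by -1.6 (-3.26 to 0.06) and -1.72. Ctns differed by -0.44 in XEN cells (-1.84 to 0.96), and the interaction was -1.57 (unadjusted p = 0.0237, edgeR adjusted p = 0.283). Ribosomal protein genes had a median of -0.20 in XEN cells, with 0 of 81 past an unadjusted p of 0.05 in either direction, and 36 of 81 had that p in the interaction (against 10.8%). Fold change and transcript length were related the other way in XEN cells (Spearman's rho 0.17), which stands beside these counts and whose part in them was not tested. For Rps2 the XEN cell value was 0.08 (-1.39 to 1.54) and the interaction 2.29 (edgeR adjusted p = 0.221).

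The XEN core genes that were lower in iXEN cells gave wide intervals in XEN cells. Lama1 differed by -0.42 (-2.98 to 2.15), Gata4 by -0.08 (-1.62 to 1.46) and Dab2 by -0.48 (-1.78 to 0.82), and their interactions had unadjusted p-values of 0.169, 0.197 and 0.149. Spink3 was higher in XEN medium in both, by 4.03 in iXEN cells and 2.81 (1.0 to 4.63) in XEN cells. Dhrs3 was lower in both, by -2.92 and -2.4 (-4.53 to -0.27). The fibroblast list had a median of -6.21 in XEN cells, over 15 tested genes, and 16 of 19 of its genes had an unadjusted p under 0.05 in the interaction (against 10.8%). In iXEN cells the median was 5.04 with all libraries and, in the same direction as in XEN cells, -2.88 without XEN medium 2 and 9. The interaction was not run without these libraries together. Zfp575, a zinc finger gene, had an interaction of 10.63 (edgeR adjusted p = 0.221), with 0.546, 0.534, 11.4 and 3.33 CPM in ESC medium and 10.4, 30.6, 178 and 67.4 CPM in XEN medium in iXEN cells, and 82.1, 10.9 and 4.04 and 0.637, 0.193 and 0.295 CPM in XEN cells 1, 2 and 7.

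**Figure D5:**
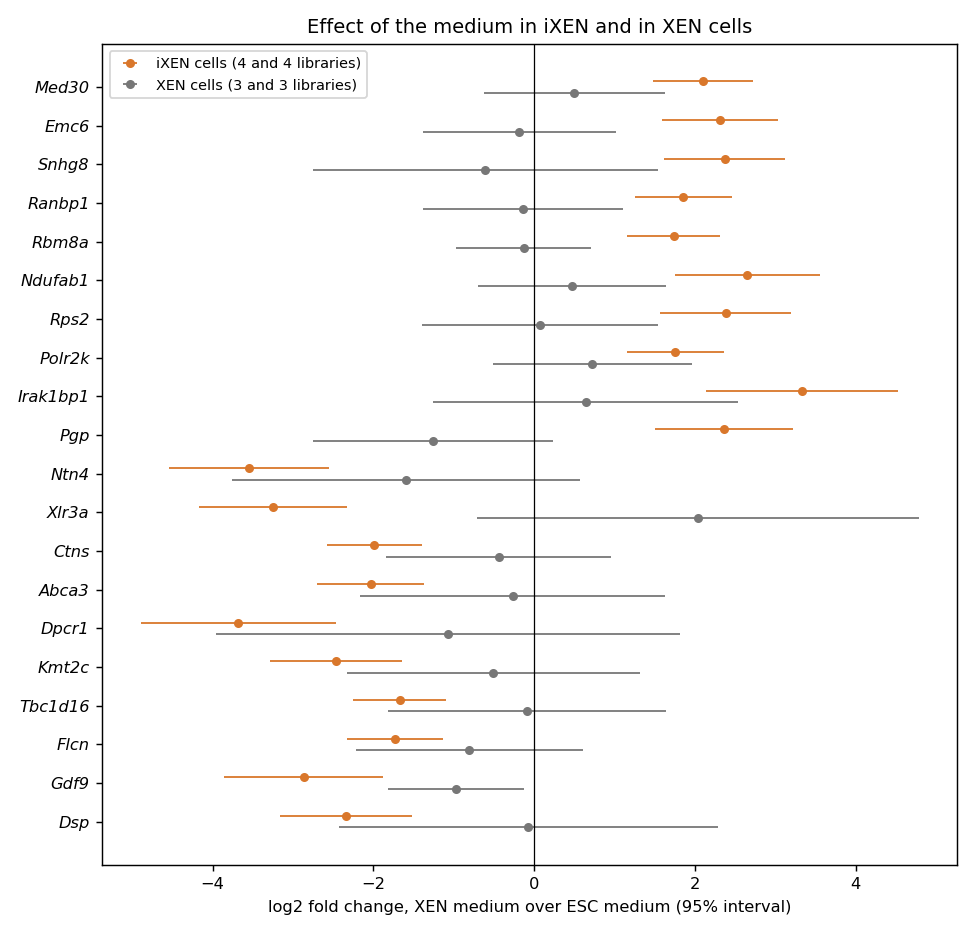
Log2 fold change of XEN medium over ESC medium (x axis, points) with its 95% interval (lines) for the 20 genes of smallest p-value in iXEN cells, in iXEN cells (orange, 4 and 4 libraries) and XEN cells (grey, 3 and 3 libraries). All 20 iXEN intervals lie on 1 side of 0 because the genes were ranked by that value, and 19 of the 20 intervals in XEN cells include 0, the exception being Gdf9 (-0.97).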

How the data were processed

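RNA-seq read counts per gene symbol were deposited by the authors, 1 table for each library, as raw counts of 24015 genes. The submitters' processing notes name FastQC 0.11.3, Trimmomatic 0.32, TopHat2 2.0.12, HTSeq 0.6.1 and genome build mm9. No source used here names the strand setting or the annotation. The counter's own lines (no feature, ambiguous, not unique) made up 21.1 to 33.1% of a library's total and were left out.

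Counts were tested with the quasi-likelihood test of edgeR 4.0.16 in R 4.3.3 (TMM factors, filterByExpr with a minimum count of 10, Benjamini-Hochberg adjusted p under 0.05 over all genes tested), on the 8 iXEN libraries for the medium and on 14 for the interaction. CPM were scaled with TMM factors over all 17 libraries. The scripts were tested on counts simulated with the spread of these 8 libraries and a few changed genes. There edgeR called 0% of 100 genes changed by a log2 of 1, and 28.9% of 97 genes changed by 2. With a smaller simulated spread it called 53% of 100 genes changed by 1 and 86% of 100 changed by 2. At the spread of these libraries the main test could thus miss most changes of that size. The share called depends on how many genes change, and the simulation held no length trend and no transcripts of other cells. DESeq2 1.42.0, a replicate block, other filters and leaving out libraries were alternatives. Length adjustment used per-library offsets from a loess trend on transcript length (GENCODE M21), available for 99.3% of the genes tested.

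The rule for named genes took, in each direction, the 10 genes of smallest p with a mean of at least 5 CPM in the higher group and the same direction in all 4 same-numbered pairs, from the fits without and with the block, 32 genes in all, and added defining members of the lists. The members and lists were chosen with earlier results of these data known. The length adjustment, 5 lists and the removal of XEN medium 2 and 9 were added after values were seen. Of several promoter motifs planned, only CACGTG is given, and only for a list added after values were seen. Some genes of the lists are not reported here by name.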

Additional observations from a re-analysis of the deposited data

Results flagged for a closer look

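In 12 of 178 groups of 4 libraries, 1 library stood apart: its gap to the nearest other library, as a share of the group's whole range of log2 CPM, was above Dixon's critical value. Chance alone gives this in about 1 in 20 groups. In ESC medium, library 6 was the lowest for 5 genes. The share was 0.979 for Nid1 (1024 CPM against 10344 to 10882), 0.933 for Igf2r (224 against 659 to 713), 0.857 for Lamc1 (11907 against 20582 to 22549), 0.851 for Apob (0.830 against 4.31 to 5.71) and 0.844 for Lama1 (16889 against 26153 to 28361). Library 9 was the lowest for Pgam1 in ESC medium (0.838, 172 CPM against 216 to 226).

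In XEN medium, library 2 was the highest for Postn (0.918, 189 CPM against 0 to 0.0579) and Dpcr1 (0.875, 32.3 against 6.84 to 8.30) and the lowest for Tpi1 (0.840, 464 against 657 to 701). Library 6 was the highest for Dab2 (0.847, 582 CPM against 329 to 359) and the lowest for Pkd1 (0.871, 9.57 against 26.2 to 30.4). Library 9 was the lowest for Hnf4a (0.916, 7.44 CPM against 13.6 to 14.3).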

How the results depend on the processing

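The count of 0 genes called for the medium became 65 (37 higher, 28 lower) with a stricter filter, which tested fewer genes, 1637 (949 and 688) with DESeq2 and 2571 (1305 and 1266) with DESeq2 and the replicate block. It became 1 without XEN medium 2 and 9. Leaving out 1 library gave 0 to 416. The replicate block in edgeR, RLE size factors, no filter, the fit of all 14 libraries and length offsets gave 0 each. The labels do not say that a number pairs libraries. Same-numbered deviations correlated at 0.21, 0.24, 0.14 and -0.06 for 1, 2, 6 and 9, those of other pairs at -0.17 to 0.17, and 5 of 8 libraries correlated best with their own number. As 1 of the 4 was not over 0.1, the values and calls in the results came from fits without the block. The fit with the block and the direction in same-numbered pairs were used to choose genes to name, among them Hmga2, Prnp and Mrps24. That choice thus leaned on a pairing that did not meet this rule. Whether numbers were exchanged between libraries was not tested. For the interaction, the replicate block gave 1 call (Zfp575), DESeq2 gave 489 and leaving out 1 library gave 0. Beyond the filter, the cause of these differences was not tested. Of the 32 genes named by the rule, 24 were called with the stricter filter, 31 with DESeq2 and 30 without ESC medium 6 or without XEN medium 2. These genes were picked by their p-values in the same libraries. Such calls are therefore largely fixed by how the genes were chosen and are not separate support for them.

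Of 89 genes followed, 85 kept their direction under each of the 21 alternatives that gave them a value (Apob and Grhl2 had none with the stricter filter), and 12 of 1860 values reversed. Col1a1 reversed to -3.02 and -2.77 in the block without number 2 or 9 and to -5.34 without XEN medium 2 and 9. Postn went to -1.73 with the block, -4.12 with the block in DESeq2, -0.54 and -0.74 in the block without number 1 or 6, -4.67 without XEN medium 2 and -7.27 without XEN medium 2 and 9. Without XEN medium 2 and 9, S100a4 was -0.33 and Pou5f1 -0.43, and Pou5f1 was -0.22 in the block without number 9. The fibroblast median was -0.91 in the block without number 2 and -2.88 without XEN medium 2 and 9. Leaving out 1 library moved Postn between -4.67 and 6.63. Depth, at least 21752277 counts in each library, limited genes of low level, such as Apob and Afp.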
